A study of Caenorhabditis elegans with 2 samples.

Results

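The Wnt ligand and Wnt secretion genes of Caenorhabditis elegans are 7 genes, taken by name from 19973 nuclear protein-coding genes: the ligands egl-20, cwn-1, cwn-2, lin-44 and mom-2, and the secretion genes mig-14 and mom-1. Binding of the Hox protein MAB-5 at these genes was read from chromatin immunoprecipitation sequencing (ChIP-seq) peak lists. Both biological replicates, the only group of the study, came from whole embryos of mixed stage and mixed sex of strain OP27, genotype unc-119(ed3) III; wgIs27. The integrated transgene wgIs27 carries mab-5 fused to eGFP, a fluorescent tag, and every animal of both replicates carries it. The labels do not give the extent of the transgene, nor the cells that express the fusion. A peak was assigned to a gene when its summit lay between 5000 bp upstream of the gene start and the gene end. The 7 windows ran from 7.20 to 13.2 kb and held 26 peaks of the relaxed list called on both replicates pooled. That list has 29978 nuclear peaks and includes background.

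Wnt proteins are secreted, lipid-modified signals that set cell polarity, cell fate and the direction of cell migration. In the cell that makes them, the acyltransferase Porcupine (MOM-1 in C. elegans) attaches the lipid, and the carrier Wntless (MIG-14) takes the ligand to the cell surface and is then recycled by the retromer. MAB-5 and this pathway meet in the migrating Q neuroblasts, where EGL-20 from the tail switches on mab-5 in the left cell.

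Of the 7 genes, cwn-1 and mom-1 held thresholded peaks, those of the list that the authors derived by a test of reproducibility between replicates. All 502 peaks of that list were among the 502 strongest pooled peaks. Of its 481 nuclear peaks, 433 had a summit within 100 bp in both replicate lists. A place in the list therefore does not show that a peak was found, or was strong, in each replicate. mom-1 had its 2 peaks in an intron and upstream, and cwn-1 had 1 close to its start. In comparison, 4.36% of all protein-coding genes held at least 1 thresholded summit in a window drawn in the same way, and 0.235% held 2 or more. The members' windows had a median length of 8.18 kb, against 7.03 kb for all genes. mig-14, cwn-2 and egl-20 had weaker peaks only, mom-2 had peaks near the median strength of the lists, and lin-44 had no peak in any list. The signal value used throughout is the authors' enrichment measure per peak, whose scale the labels do not state. In the pooled list it had a median of 11.2, and the weakest thresholded peak had 34.3. The design has 1 group, so no test between conditions was possible. In whole embryos, strong binding in few cells and weak binding in many cannot be told apart.

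The sequences shown are those of the 5 member peaks of the pooled list that had a summit within 100 bp in both replicates, the 3 thresholded ones first. Each is 201 bases of the RefSeq WBcel235 genome, read in the direction of the gene, with the summit at base 101. Capitals mark annotated non-coding RNA genes in the first 2, no base in the third, the letters TGATTA in the fourth and no base in the fifth. The regions are, for cwn-1, chrII:133946-134146 (minus strand). For mom-1 upstream the region is chrX:6292260-6292460, and for the mom-1 intron it is chrX:6296522-6296722 (both plus strand). For cwn-2 it is chrIV:10065244-10065444, and for mig-14 chrII:13737022-13737222 (both plus strand).
cwn-1 upstream: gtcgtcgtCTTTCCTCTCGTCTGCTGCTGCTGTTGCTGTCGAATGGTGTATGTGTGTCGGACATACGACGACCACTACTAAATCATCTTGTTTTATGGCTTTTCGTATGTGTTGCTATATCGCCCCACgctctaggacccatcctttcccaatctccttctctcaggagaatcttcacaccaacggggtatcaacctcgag
mom-1 upstream: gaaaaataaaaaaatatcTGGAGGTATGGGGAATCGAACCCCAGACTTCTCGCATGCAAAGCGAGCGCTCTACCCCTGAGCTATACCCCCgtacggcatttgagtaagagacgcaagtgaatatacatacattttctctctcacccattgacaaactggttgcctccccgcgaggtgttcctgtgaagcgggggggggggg
mom-1 intron: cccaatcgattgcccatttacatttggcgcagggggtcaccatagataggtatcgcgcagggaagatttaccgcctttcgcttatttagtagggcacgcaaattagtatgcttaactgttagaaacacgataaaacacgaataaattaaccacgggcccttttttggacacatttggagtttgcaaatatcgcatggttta
cwn-2 upstream: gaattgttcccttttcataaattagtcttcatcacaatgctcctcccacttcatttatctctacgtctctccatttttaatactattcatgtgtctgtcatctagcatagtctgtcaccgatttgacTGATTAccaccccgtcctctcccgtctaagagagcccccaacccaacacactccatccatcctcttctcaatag
mig-14 upstream: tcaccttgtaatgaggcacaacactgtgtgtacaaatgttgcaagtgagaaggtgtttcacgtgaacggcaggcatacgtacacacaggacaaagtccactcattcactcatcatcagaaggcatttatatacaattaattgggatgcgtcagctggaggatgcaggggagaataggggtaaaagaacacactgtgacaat

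**Figure D1:**
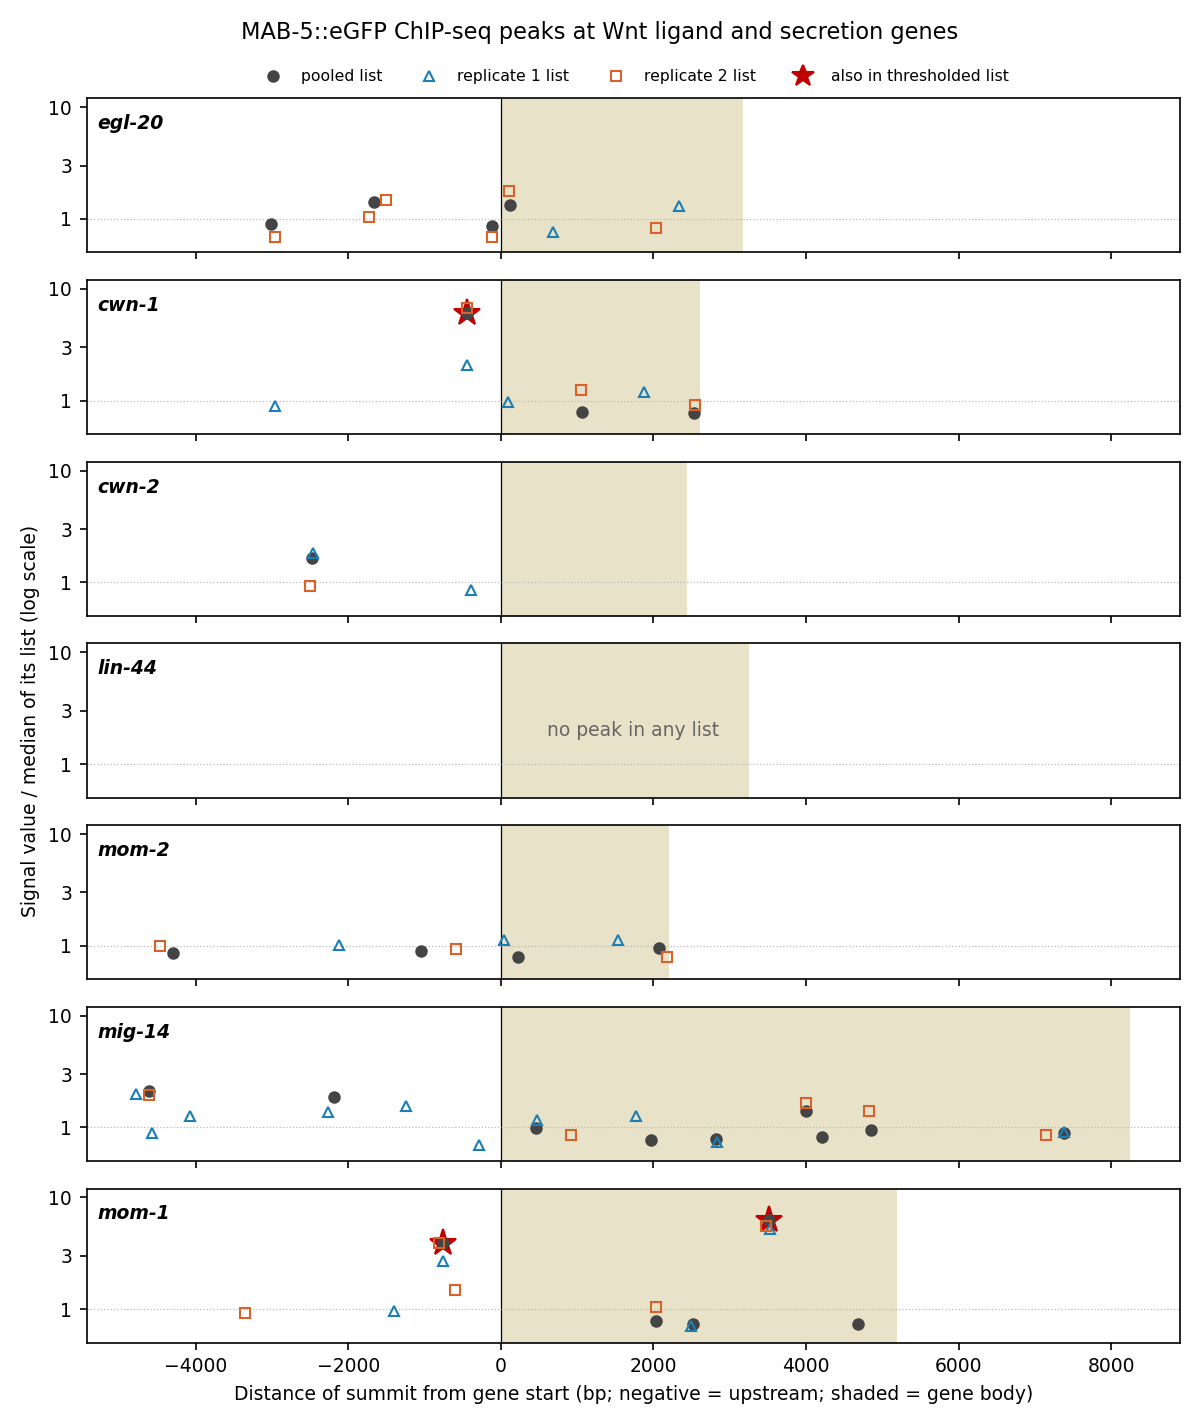
Position of every peak summit in the window of each gene (x axis, bp from the gene start, upstream negative, gene body shaded) against its signal value divided by the median of its own list (y axis, log scale). Filled circles are the pooled list, open triangles replicate 1, open squares replicate 2 and red stars the thresholded peaks. The 3 stars at cwn-1 and mom-1 stand above all other pooled peaks, and the lin-44 panel is empty.

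Among the ligand genes, cwn-1 had by far the strongest peak. CWN-1 acts together with other Wnts in the migration of neurons and of the Q neuroblasts. The gene (WBGene00000857, minus strand, chromosome II, 130983 to 133598) had a summit 448 bp upstream of its start with a signal value of 67.8 in the pooled list, rank 78 of 30000. The signal value was 10.3 at rank 1568 in replicate 1 and 55.8 at rank 47 in replicate 2, with all 3 summits within 4 bp of each other. The position was therefore the same in both replicates, while the strength was not. The ratio of the replicate 2 value to the replicate 1 value was 5.39, against a median of 1.67 over the 4244 nuclear pooled peaks matched in both replicates, and 98.9% of those had a ratio no higher. Among the 502 strongest peaks of replicate 1 alone there was none at cwn-1, so that a rank within the length of the thresholded list was reached in replicate 2 only.

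The summit of the cwn-1 peak lay in sequence intergenic to protein-coding genes, and cwn-1 had the nearest protein-coding start. It fell inside a pair of annotated non-coding RNA genes, WBGene00196427 and WBGene00197931, which share the interval 134019 to 134138 on opposite strands. These are the 120 bases in capitals in the cwn-1 sequence. The gene body held 2 further pooled peaks, in an intron with a signal value of 8.92 and in the 3′ UTR with 8.62. Both were matched in replicate 2 and neither in replicate 1.

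mom-1 had the strongest peak of the 7 genes, and the replicates gave it nearly the same rank. The gene (WBGene00003394, plus strand, chromosome X, 6293112 to 6298305) had this summit in an intron, 3510 bp downstream of its start, with a signal value of 69.9 and rank 70 in the pooled list. In replicate 1 the signal value was 25.9 at rank 88, and in replicate 2 it was 46.3 at rank 78. The ratio of 1.79 was near the median of matched peaks. The nearest protein-coding start was that of the carboxylesterase gene cest-16, at 3320 bp, on the far side of the 3′ end of mom-1.

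The second thresholded peak of mom-1 lay between divergent genes and beside a tRNA gene. Its summit was 752 bp upstream of mom-1 and 628 bp upstream of lev-9, a gene needed to cluster acetylcholine receptors at neuromuscular synapses. It had a signal value of 43.7 and rank 244 in the pooled list, 13.4 and rank 631 in replicate 1, and 32.7 and rank 200 in replicate 2. An annotated tRNA gene on the minus strand (WBGene00023133, 6292278 to 6292349, an alanine tRNA in RefSeq) starts 11 bp from the summit, and its 72 bases are in capitals in the sequence of mom-1 upstream. It was the only one of the 26 pooled peaks with a tRNA gene within 100 bp, where 0.64% of all nuclear pooled peaks and 3.53% of the 481 nuclear thresholded peaks had one. This distance was chosen after the mom-1 peak had been seen. Which of the 3 genes the peak belongs to was not tested. The other 3 pooled peaks of mom-1, all in introns, had signal values from 8.21 to 8.71.

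**Figure D2:**
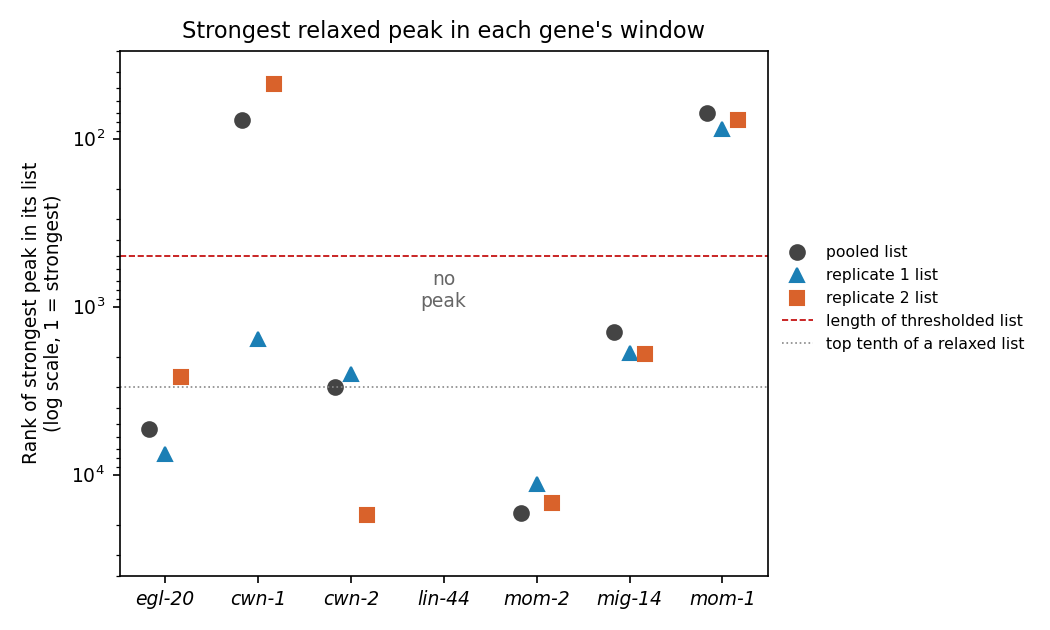
Rank of the strongest peak in each gene's window (y axis, log scale, 1 is the strongest of 30000) in the pooled list (circles), replicate 1 (triangles) and replicate 2 (squares). The dashed line is the length of the thresholded list, 502, and the dotted line the top 10% of a relaxed list, 3000. mom-1 ranks between 70 and 88 in all 3 lists, cwn-1 is far lower in replicate 1, and lin-44 has no peak.

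mig-14 had the most peaks of the members in the pooled and replicate 1 lists, all below the thresholded range. The gene (WBGene00003246, plus strand, chromosome II, 13741738 to 13749983) is also the longest of the 7, at 8.25 kb. Its window held 9 pooled peaks, 10 of replicate 1 and 5 of replicate 2, where egl-20 had 6 of replicate 2. The pooled density was 0.679 peaks per kb, at percentile 94.2 of all genes. In replicate 2 the density was 0.377 peaks per kb. The replicate 2 median was 0.394 for the members and 0.276 for all genes. The strongest pooled peak, 4616 bp upstream, had a signal value of 23.6 and rank 1425. It lay 802 bp downstream of the start of another gene, R06B9.5, and 189 bp past its end. In replicate 1 the summit 43 bp away had a signal value of 4.41 at rank 19048, and in replicate 2 the summit 3 bp away had 16.1 at rank 1906. The ratio of replicate 2 to replicate 1 was 3.66, and 94.5% of matched peaks had a ratio no higher. The strongest replicate 1 peak of the window, with 9.83 at rank 1892, was another one, 163 bp from the replicate 2 summit. Closer to mig-14, a peak 2180 bp upstream had a pooled signal value of 20.9 and was matched in replicate 1 only. Of the 9 pooled peaks, 7 lay in introns, with signal values from 8.69 to 15.8, and just 1 peak, the one farthest upstream, was matched in both replicates.

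cwn-2 and egl-20 had peaks below the thresholded range that differed between the replicates. Their strongest pooled signal values were at percentiles 78.8 and 67.5 of all genes. For cwn-2 the percentile was 81.2 in replicate 1 and 33.8 in replicate 2, and for egl-20 it was 56.9 and 80.9. CWN-2 guides the placement of neurites and neurons in the anterior. The cwn-2 window (WBGene00000858, plus strand, chromosome IV, 10067816 to 10070251) held 1 pooled peak, intergenic and 2472 bp upstream. Its pooled summit had cwn-2 as the nearest start. The replicate 2 summit, 2494 bp upstream of cwn-2, was nearer to the start of ipla-7, at 2473 bp. Which gene the peak belongs to was not tested. The peak had a pooled signal value of 18.6 at rank 3015. The signal value was 9.08 at rank 2527 in replicate 1 and 7.76 at rank 17376 in replicate 2, so that here replicate 1 had the better rank, the opposite of cwn-1. The ratio of replicate 2 to replicate 1 was 0.854, and 8.32% of matched peaks had a ratio no higher.

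EGL-20, the ligand that acts on the left Q neuroblast, is made in cells of the tail. The egl-20 window (WBGene00001188, minus strand, chromosome IV, 9812357 to 9815532) held 4 pooled peaks, 2 of replicate 1 and 6 of replicate 2. The strongest pooled peak, 1664 bp upstream, had a signal value of 15.7 and rank 5387. A peak in the first part of the coding sequence, 114 bp downstream of the start, had a pooled signal value of 14.7 and ranked 2635 in replicate 2. The weakest of the 4 had 9.60. All 4 pooled peaks had a summit of replicate 2 within 100 bp and none had one of replicate 1, whose own peaks lay 685 and 2335 bp inside the gene. The nearest thresholded summit was 711 kb away, and that of cwn-2 667 kb away, within the same stretch of chromosome IV without thresholded peaks.

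mom-2 had peaks near the median strength of the lists only. MOM-2 is the Wnt by which a germline precursor cell of the early embryo induces its neighbour to make endoderm. The mom-2 window (WBGene00003395, plus strand, chromosome V, 8355988 to 8358185) held 4 pooled peaks with signal values from 8.88 to 10.7, all below the list median of 11.2. The best rank was 16849 in the pooled list, 11311 in replicate 1 and 14832 in replicate 2. None of the 4 pooled peaks had a summit of either replicate within 100 bp. The pooled density of 0.556 peaks per kb was nevertheless at percentile 87.5, so that many peaks in this window did not go with strong ones. In each replicate the density was 0.417 peaks per kb. mom-2 had the nearest start for 2 of the 4 pooled peaks. The strongest of the 4, in the 3′ UTR of mom-2, was nearer to the start of mpdu-1.

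lin-44 had no peak at all. LIN-44 is made by the skin cells of the tail tip and orients the polarity of dividing cells near it. The window of lin-44 (WBGene00003029, plus strand, chromosome I, 4126056 to 4129310) held 0 peaks of the pooled list, 0 of replicate 1 and 0 of replicate 2. Such windows made up 6.45% of all protein-coding genes. The nearest pooled summit lay 6307 bp downstream of the start, at the start of srrt-1, with a signal value of 16.8. The stretch between consecutive pooled summits that holds the lin-44 start was 14.2 kb long, against a median of 5.82 kb over 19956 gene starts, and 73.9% of starts lay in a stretch no longer. In replicate 1 the stretch was 14.2 kb, at percentile 85.7 of gene starts, and in replicate 2 it was 19.4 kb, at percentile 86.7. The lists are limited to a fixed number of peaks, so that the absence of peaks says nothing of weaker binding.

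**Figure D3:**
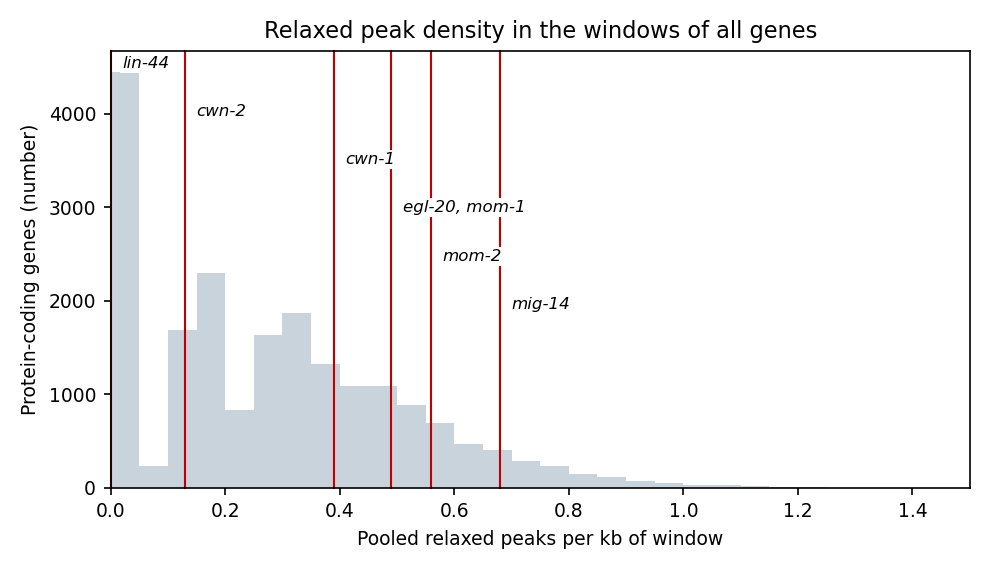
Number of protein-coding genes (y axis) by density of pooled relaxed peaks in their windows (x axis, peaks per kb), with red lines at the 7 genes. The lines run from lin-44 at 0 to mig-14 at 0.679 peaks per kb, and 5 of the 7 lie above the median of all genes, 0.269.

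Over the 7 windows together, the relaxed lists held 26 peaks in the pooled list, 25 in replicate 1 and 23 in replicate 2. The density was 0.419, 0.402 and 0.370 peaks per kb, where the windows of all genes gave 0.291, 0.299 and 0.294. The members' median in the pooled list was 0.489 peaks per kb, and the median of all genes was 0.269. In each of the 3 lists, 5 member peaks ranked in the top 10%. Of the 26 pooled peaks, 17 had signal values below the list median.

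The share of member peaks found in both replicates was near that of the whole list. Of the 26 pooled peaks, 5 (19.2%) had a summit within 100 bp in both replicate lists, against 14.2% of all nuclear pooled peaks, while 7 (26.9%) had one in neither, against 24.9% of all. The 5 were the cwn-1 peak, both thresholded mom-1 peaks, the cwn-2 peak and the farthest upstream peak of mig-14. The pooled list was made from the same reads, so this is not an independent check. Counting by gene, 3 of 7 (42.9%) had a window summit in the top 10% of both replicate lists, namely cwn-1, mig-14 and mom-1, against 10.6% of all genes. At mig-14 these are the summits 163 bp apart. The members' windows were longer, as given above, and longer windows can hold more summits. With the top 5% of both lists required, mom-1 alone was counted, 1 of 7, against 5.40% of all genes. Base composition differed between the matched peaks and the rest, with some overlap. The 5 matched peaks had a GC content of 42.8 to 51.2% around the summit. The other 21 had a median of 28.9%, all nuclear pooled peaks 32.8% and thresholded ones 41.3%. Among the 21, the mig-14 peak 2180 bp upstream had 43.3%, inside the range of the 5. The part of base composition in the agreement was not tested.

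**Figure D4:**
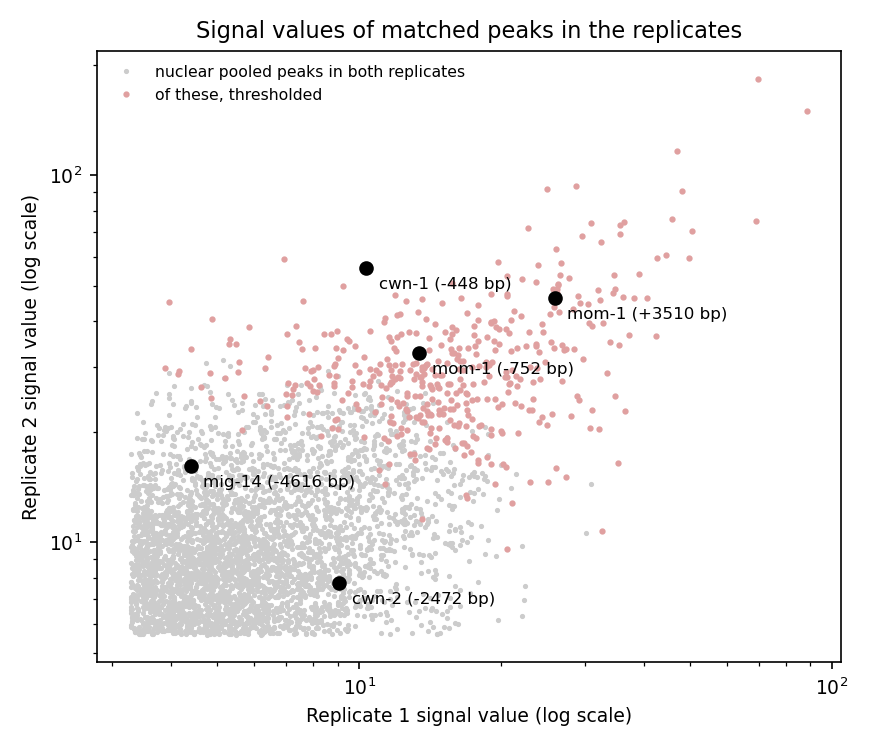
Signal value in replicate 1 (x axis, log scale) and replicate 2 (y axis, log scale) of nuclear pooled peaks with a summit within 100 bp in both replicates (grey), the thresholded ones among them (pink) and the 5 peaks at member genes (black, labelled with the gene and the distance from its start). cwn-1 lies toward replicate 2 and cwn-2 toward replicate 1, while the mom-1 peaks lie among the other thresholded peaks.

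By annotated feature, 14 of the 26 pooled summits at members (53.8%) were in introns, against 39.4% of all nuclear pooled peaks. In intergenic sequence there were 8 (30.8%), against 43.6% of all, in coding exons 2 (7.69%), against 10.9%, and in 3′ UTRs 2 (7.69%), against 4.28%. For 18 of the 26 (69.2%) the member was the gene with the nearest start, where 51.2% of all pairs of a gene window and a pooled peak in it gave that gene. The windows leave out intergenic summits far from the members, while all nuclear pooled peaks include such summits. The shares by feature are therefore not on the same footing. Of the 14 intron summits, 7 were at mig-14, the longest member, and 4 at mom-1. None of these differences was tested. TGATNNAT, the composite site of Hox proteins with their PBC cofactors, was looked for on either strand in the 201 bases around every summit. It was found at 3 of 26 member peaks (11.5%, exact 95% interval 2.45 to 30.2%), against 15.3% of all nuclear pooled peaks and 28.7% of thresholded ones. The 3 were weak peaks of mig-14, mom-1 and mom-2. That of mom-2, in the 3′ UTR, held ATTTATCA, the composite letters on the opposite strand, starting at the summit base. The letters TGATTA occurred at 4 member peaks, including the cwn-2 and strongest egl-20 peaks, and at 11.6% of all pooled peaks. TGATGG occurred at 1 member peak and 6.86% of all, and TAATTA at 0 and 11.6%. None of these letters, some of which can overlap, was in the 201 bases of the 3 thresholded member peaks, a number too small to set against 28.7%. A match is a description of the sequence and shows neither a binding site nor its absence.

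Other genes of the pathway were read in windows drawn in the same way. Of 34 such genes, 7 (20.6%) held a thresholded summit, but their windows were longer still than those of the members, with a median of 9.78 kb. Among the 10 receptor and polarity genes there were 3. These were the Frizzled genes lin-17, with a strongest signal value of 74.5, and mom-5, with 52.3, and the Ror kinase gene cam-1, with 75.1 in an intron. The mom-5 summit was nearer to the start of algn-10, and the strongest cam-1 summit to that of C01G6.9. The windows of lin-17 and cam-1, of 15.7 and 19.4 kb, held 2 and 3 thresholded summits. Both genes still counted when only summits nearest to the gene's own start were taken.

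Among the 16 intracellular genes, 4 had a thresholded summit. The Dishevelled genes dsh-1 and mig-5 had signal values of 39.4, in an intron, and 54.0, at 192 bp upstream. The beta-catenin genes sys-1 and hmp-2 had 77.2 and 42.4, but those summits lay 116 bp from the start of the histone gene his-68 and 220 bp from that of K05C4.7. In replicate 1 the dsh-1 and hmp-2 summits ranked 1465 and 599, past the length of the thresholded list. Those of mig-5 and sys-1 ranked 245 and 82. None of the 8 genes of retromer traffic and MIG-14 recycling held a thresholded summit. These are vps-35, vps-26, vps-29, snx-3, mtm-3, mtm-6, mtm-9 and dpy-23, of which vps-35 had no pooled peak in its window. Within secretion, thresholded peaks were thus found at mom-1 and not at mig-14 or these 8 genes. This difference was not tested. Of all protein-coding genes, 4.36% held a thresholded summit, so 8 genes are too few for their lack of one to stand out. In replicate 2 alone, mtm-3 had a summit ranked within the length of the thresholded list, but in replicate 1 alone it had none. When only summits nearest to the gene's own start were counted, mom-1 held no thresholded summit either.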

How the data were processed

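The authors deposited 4 peak lists on ce11. Per the file descriptions, relaxed lists of 30000 peaks were called on each of the 2 replicates and on both pooled, with a control alignment, and a list of 502 peaks was derived from them by the irreproducible discovery rate. The labels name neither caller nor aligner. The control library was not analysed here. The deposited signal value of a peak is the authors' enrichment measure. It was ranked within a list, and ratios between replicates were set beside those of all matched peaks. Read depth is unknown. The ce10 lists were not used here. All ce11 intervals lay within the WBcel235 chromosome lengths.

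Gene models were those of Ensembl release 115, and 99.9% of protein-coding genes had a RefSeq symbol by locus. The members and lists were chosen with earlier results of these data known. Named are all members, other Wnt genes with a thresholded summit, and genes nearest to or holding a member's thresholded or strongest summit. R06B9.5, srrt-1, vps-35 and ipla-7 and the tRNA search were added after values were seen. The exact interval covers counting error only and treats the peaks as independent, although many of them share a gene window. Counting was tested on simulated data. Software was Python 3.11.15, numpy 2.4.6, scipy 1.17.1, pandas 2.3.3 and matplotlib 3.10.9.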

Additional observations from a re-analysis of the deposited data

How the results depend on the processing

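Counting only summits whose nearest gene start is the gene itself, 1 member (cwn-1) and 4 other Wnt genes held a thresholded summit, and the strongest pooled signal values became 20.9 at mig-14, 10.1 at mom-2 and 8.71 at mom-1. With 2000 bp upstream the mig-14 value became 15.8, and cwn-2 had no pooled peak left. In the top 5% of both replicates there was 1 member, mom-1, against 5.40% of all genes. With the strongest peaks of a single replicate, 1 to 2 members and 6 to 8 other Wnt genes had a thresholded-rank summit, and the members' windows held 23 to 25 relaxed peaks. The lower member count came without replicate 2, when cwn-1 was lost. Leaving out summits near tRNA genes, chosen after seeing the data, kept cwn-1 and mom-1. No paired analysis was possible because there is 1 group and no test. Peak lists without read counts give no counting error for a signal value.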

Other observations

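Beyond the windows, the first pooled peak upstream of egl-20, 9828 bp from its start, had a signal value of 28.7, above the 15.7 of the strongest peak inside the egl-20 window. Upstream of mom-2, the first peak outside its window, at 6906 bp, had a signal value of 18.8, above the 10.7 inside. For mig-14 the first peak past the gene end, at 1313 bp, had 16.6. Of the pooled summits inside the windows, the farthest upstream was that of mig-14, 4616 bp from the gene start. The next beyond the upstream edge of the mig-14 window lay 6309 bp from the start with a signal value of 10.4.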
